A study of Mus musculus with 22 samples.

Results

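The replication-dependent histone genes were examined as a group in maps of RNA polymerase II (PolII) from mouse erythroblasts leaving mitosis. The members were all genes whose symbol starts with Hist1h, Hist2h, Hist3h or Hist4h in GENCODE vM1 on the mm9 assembly, and they numbered 70 of the 22353 genes considered (protein-coding genes and the members on 20 chromosomes). They comprised 6 H1, 20 H2A, 19 H2B, 12 H3 and 13 H4 genes. When neighbours closer than 1 Mb were joined they fell into 6 places. The largest held 31 genes on chr13:23622919-24026720, and a second run of 24 genes lay on chr13:21807632-22135545. A block of 10 genes lay on chr3:96023839-96082924 and 3 genes lay on chr11:58762413-58770176. Hist1h2al stood alone on chr13:51298057-51298434 and Hist4h4 stood alone on chr6:136752589-136752900.

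Replication-dependent histone genes supply the core and linker histones that package newly copied DNA. They are short and lack introns in their classical form, occur in many near-identical copies, and are transcribed mainly in S phase under the coactivator Npat at nuclear histone locus bodies. Their messages end in a conserved stem-loop that is bound by Slbp, in place of a poly(A) tail.

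PolII was mapped by ChIP-seq in G1E-ER4 cells, a subline of the GATA1-null proerythroblast line G1E that was kept uninduced here, in which both CTCF alleles carried a degron fused to mCherry and a retrovirus supplied the plant receptor that acts with auxin. All groups carried the tagged CTCF and the receptor, and all had been arrested with nocodazole. Prometaphase cells were sorted for replicated DNA and a mitotic phosphoepitope, and the G1 stages for unreplicated DNA. Prometaphase cells were taken at 0 h, and early-G1, mid-G1 and late-G1 cells at 1, 2 and 4 h after release. Each stage had a control group without auxin and an auxin group, in which the degron directs CTCF to destruction, with 2 libraries in each group except mid-G1, where each group had 3. The line is one engineered background, and control and auxin cells also differed in the mCherry gate. The study describes its replicates as biological, but the labels do not say whether they were separate cultures, so p-values measure the spread between these libraries only. The sources disagreed on the library called late-G1 auxin replicate 1 here. GEO's labels and the list of raw reads name it as auxin, whereas a list of processed files names a further control in its place. The labels were followed, and results that turn on this library are also given without it. In sorted populations, fewer cells with PolII at a gene and less PolII per cell cannot be told apart.

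The deposited lists gave 2414 to 3918 PolII peaks per prometaphase library and 50594 to 117125 per library after mitosis. A gene was scored as detected when a peak overlapped the gene or the 500 bp on either side of it, and its best peak was the one with the highest fold enrichment, ranked from 1 at the top of each list, tied peaks sharing their mean rank. Of 10 marker genes of erythroid progenitors, 10 were detected in all 14 post-mitotic libraries, and of 7 genes of other cell types 6 were detected in none (Gfap had a peak in 9). Reads at the summits could be recovered from the deposited values. The pileup at the strongest summit was 80.2 to 99.7% of the most that duplicate removal allows after mitosis, and 37.8 to 50.0% in prometaphase, taking the narrowest listed peak as the fragment length. The median histone gene lay at 38.9 to 79.0% of that limit after mitosis against 7.1 to 29.8% for the median detected gene. One library stood apart at several histone genes: late-G1 control replicate 3 had the longest list, and its ranks were the poorest of the 14 post-mitotic libraries at Hist2h4 (7038), Hist1h3e (10705.5), Hist1h1t (10109.5) and Hist1h2ak (3514).

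The promoters shared features that the choice of genes did not use. In the 200 bp upstream of the annotated start, CCAAT on either strand was present in 82.9% of members and in 30.6% of all genes, and TATAAA in 41.4% and 10.05%. The octamer ATTTGCAT was found in 22.9% of members against 1.36% of all genes, at 7 of the 20 H2A and 9 of the 19 H2B genes and at no H1, H3 or H4 gene. The AAACACA box was present at 5 of 6 H1 genes and in 4.39% of all genes. Only 4 of 13 H4 genes held CCAAT. Of the members, 13 H2A and H2B pairs started head to head within 500 bp of each other. The upstream windows of such partners overlap, so 1 motif site can be counted at both genes. This was so for the octamer at Hist3h2bb-ps/Hist3h2a, Hist1h2ah/Hist1h2bk, Hist1h2ae/Hist1h2bg, Hist1h2ac/Hist1h2bc, Hist1h2ba/Hist1h2aa and Hist2h2ac/Hist2h2be. Each of these pairs held 1 octamer between its starts, so the shares count genes and not separate sites. The region between the starts of one of the best-ranked pairs, that of the lone chromosome 11 pair, and the upstream sequences of an H1 and an H4 gene are shown to set these arrangements side by side, with the letters of the searched motifs in capitals (mm9; pairs on the plus strand, single genes in the direction of transcription).
Hist1h2ae/Hist1h2bg, chr13:23663090-23663264: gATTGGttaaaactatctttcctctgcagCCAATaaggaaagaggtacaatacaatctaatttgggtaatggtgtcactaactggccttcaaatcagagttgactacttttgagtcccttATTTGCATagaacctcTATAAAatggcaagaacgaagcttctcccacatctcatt
Hist3h2bb-ps/Hist3h2a, chr11:58768015-58768186: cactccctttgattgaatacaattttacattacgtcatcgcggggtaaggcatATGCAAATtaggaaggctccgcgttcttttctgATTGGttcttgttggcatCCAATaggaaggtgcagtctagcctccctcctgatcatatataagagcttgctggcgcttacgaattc
Hist1h1d, chr13:23646701-23646900, plus strand: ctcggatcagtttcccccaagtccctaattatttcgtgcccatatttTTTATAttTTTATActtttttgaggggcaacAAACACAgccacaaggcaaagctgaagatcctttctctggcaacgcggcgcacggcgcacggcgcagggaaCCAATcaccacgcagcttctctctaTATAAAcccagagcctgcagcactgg
Hist1h4i, chr13:22133222-22133421, minus strand: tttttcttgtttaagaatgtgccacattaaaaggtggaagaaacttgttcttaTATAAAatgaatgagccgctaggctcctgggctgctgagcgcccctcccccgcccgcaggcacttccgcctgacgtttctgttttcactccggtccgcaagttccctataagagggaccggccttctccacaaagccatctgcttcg

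At the other end of the genes, the 3′ stem-loop (searched as GG, any 2 bases, CTTTT, any base, AG, any base and GCC) occurred on the sense strand between 300 bp before and 500 bp after the gene end in 46 of 70 members and in 49 of all 22353 genes, so that 3 of its occurrences fell outside the family. The share by class ran from 58.3% of H3 to 70% of H2A genes. The 3 commonest forms are shown because they account for 44 of the 46 genes.
Form at 28 genes: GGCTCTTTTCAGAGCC
Form at 8 genes: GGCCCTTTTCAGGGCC
Second form at 8 genes: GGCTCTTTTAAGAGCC

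PolII peaks were present at most histone genes in mitosis as well as after it. In prometaphase 57 and 56 of the 70 genes were detected in the controls and 57 and 55 after auxin, whereas 10.5, 9.09, 8.92 and 6.58% of all genes were. After mitosis 59 to 61 of 70 members were detected per library, against 44.4 to 50.8% of all genes. Thus 54 members (77.1%) had a peak in all 4 prometaphase libraries, where 4.26% of all genes did, and 59 members (84.3%) had one in all 14 post-mitotic libraries, where 43.1% did. The counts of detected members overlapped between control and auxin groups at every stage. With a window of 500 bp on either side of the start site only, 50 members were detected in each prometaphase library, and 4.85 to 7.72% of all genes. The median member was 530.5 bp long and the median gene 15427 bp.

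**Figure D1:**
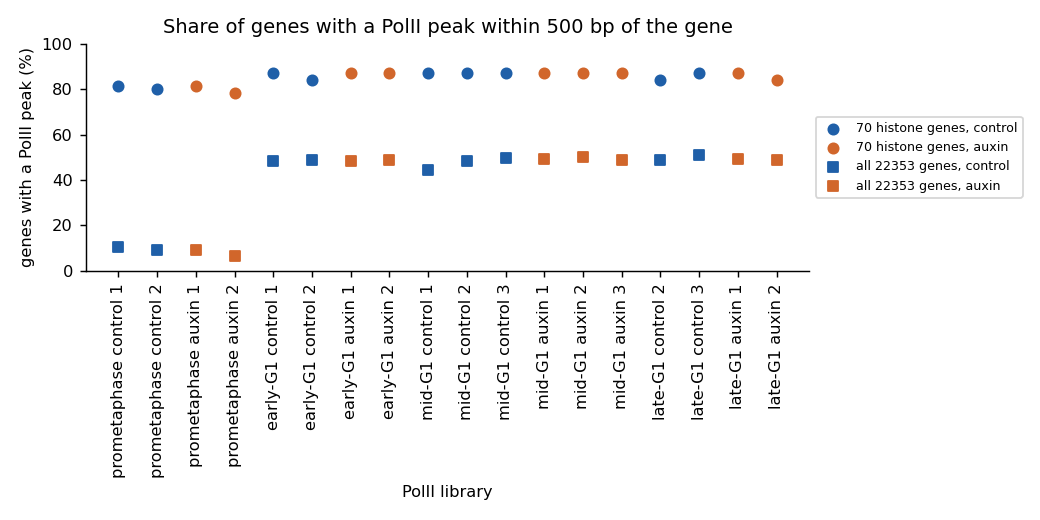
Share of genes with a PolII peak within 500 bp of the gene (vertical axis, percent) in each of the 18 libraries (horizontal axis). Circles are the 70 histone genes and squares all 22353 genes, with control libraries in blue and auxin libraries in orange. The histone genes lie between 78.6 and 87.1% in every library, while all genes lie between 6.58 and 10.5% in prometaphase and between 44.4 and 50.8% afterwards.

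The peaks at histone genes stood near the top of each list. In prometaphase 19 to 27 of the 100 strongest peaks overlapped a histone gene, and after mitosis 15 to 28 of 100 did, although such peaks made up 1.63 to 3.11% and 0.06 to 0.13% of the lists. The median rank of the detected members was 83 to 107 in prometaphase and 40 to 166 after mitosis. Of the 59 members detected in all 14 post-mitotic libraries, 34 had a mean rank under 100 and 52 a mean rank under 1000. Ranked by their mean over the same libraries, 23 of the 59 best of 9631 genes were histone genes.

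**Figure D2:**
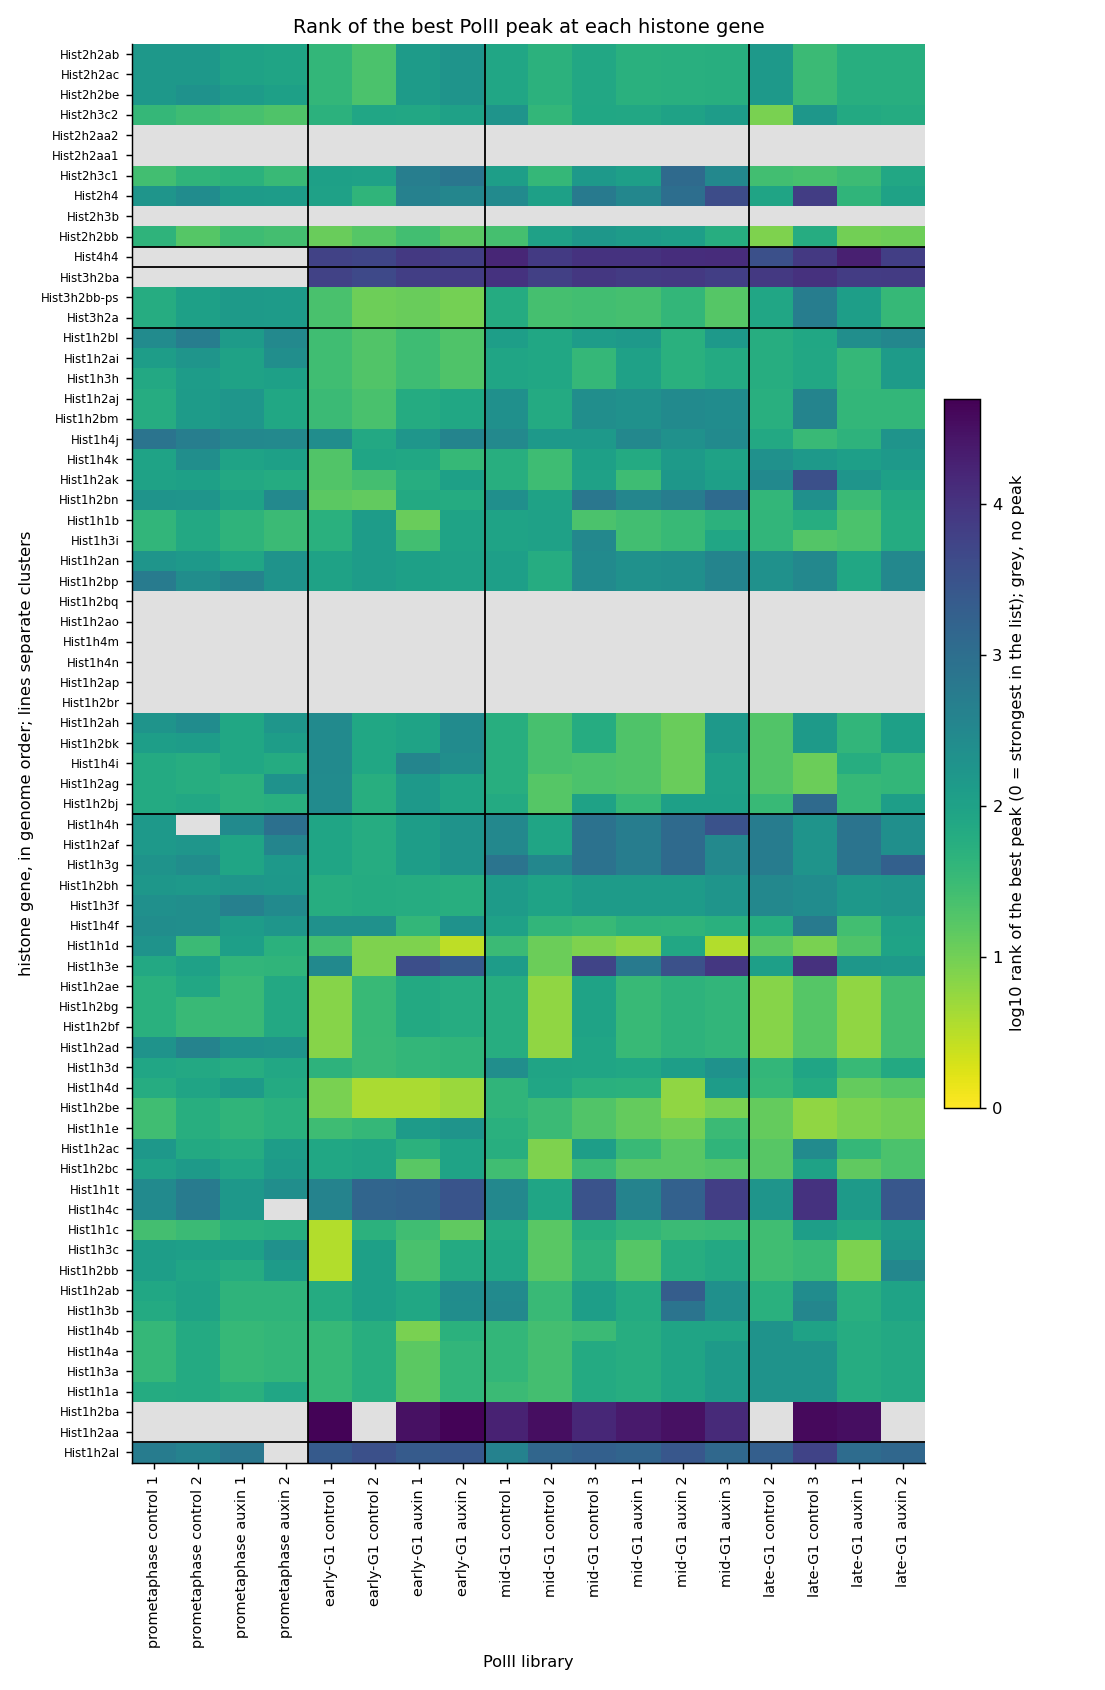
Rank of the best PolII peak (colour, log10 of the rank, 0 being the strongest peak of the list) at the 70 histone genes in genome order (rows) in the 18 libraries (columns). Grey marks no peak, horizontal lines separate the 6 places and vertical lines the stages. The 9 genes without a peak are grey throughout. Hist4h4, Hist3h2ba and Hist1h2ba with Hist1h2aa are grey in prometaphase and coloured afterwards, the last pair in 11 of 14 libraries.

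Linker histone genes were among the best-ranked members. Hist1h1d ranked 190 and 32 in the prometaphase controls and 113 and 50 after auxin. It ranked 24, 8, 8 and 3 in early-G1 and 3.5 to 75 in mid-G1. In late-G1 its ranks were 15 and 9 in the controls and 20 and 94 after auxin. Its mean fold enrichment over the 14 post-mitotic libraries was 105 ± 13 (SD), against 28.1 ± 8.54 over the 4 prometaphase libraries. Hist1h1c ranked 3.5 to 136 after mitosis and 25, 31, 53 and 57 in prometaphase. By contrast Hist1h1t, the testis H1 gene, shared its best post-mitotic peak with the neighbouring Hist1h4c, and its ranks ran from 86.5 to 10109.5.

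H2A and H2B genes were also among the best-ranked members, but several of them lay under one peak. Hist1h2ae, Hist1h2bg and Hist1h2bf had the same best peak in each post-mitotic library, which ranked 6 to 93 (mean 36.0). Hist1h2ad, next to them, averaged 32.1 and had the best peak of Hist1h2bf in 10 of the 14 libraries. Hist1h2bc averaged 39.2 and Hist1h4d, an H4 gene of the same cluster, 36.6. The best mean rank, 12.9, belonged to Hist1h2be, whose annotation spans 37383 bp between Hist1h4d and Hist1h1e. Its ranks were those of Hist1h4d in early-G1 and of Hist1h1e in late-G1, so this mean cannot be assigned to its own promoter. In prometaphase the strongest members were on chromosome 3. Hist2h3c2, annotated as a pseudogene, ranked 36.5, 28.5, 23 and 20 with a fold enrichment of 42.8 ± 4.66 (SD, n = 4). Hist2h2bb ranked 44, 17, 29 and 25, and Hist2h3c1 ranked 26, 42, 49 and 32.5. The prometaphase summits of these 2 genes lay 4219 to 4545 bp and 2106 to 3344 bp from their annotated starts. Those of Hist2h3c2 lay 1704 to 1822 bp from its start, past the end of the gene, which is 1011 bp long. The ranks of Hist2h3c2, Hist2h2bb and Hist2h3c1 therefore cannot be assigned to their own promoters either. The other members with the best prometaphase ranks were Hist1h4b, Hist1h4a, Hist1h3a, Hist1h1e, Hist1h2be, Hist1h1b, Hist1h3i and Hist1h2bg, with mean ranks of 44.5 to 47.6.

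Peaks often covered several members, and the ranks of such members are not independent. After mitosis the detected genes had 32 to 42 distinct best peaks per library, with a median width of 1894 to 4299 bp and a greatest width of 15846 bp. In prometaphase 55 to 57 genes had 41 to 45 distinct best peaks of 1654 to 2192 bp. Joining members that shared a best peak in 7 or more of 14 libraries left 34 units among the 59 genes, of up to 4 genes each. Of 10 head-to-head pairs detected in all 14 post-mitotic libraries, 5 shared one peak in all 14 and 8 in 7 or more, whereas Hist1h2ak and Hist1h2bn shared none. In prometaphase Hist3h2bb-ps and Hist3h2a were the only such pair to share their best peak in all 4 libraries, and Hist1h2ae and Hist1h2bg did so in 3. Peak merging moved ranks: Hist1h3e, which lies beside Hist1h1d, ranked 8 in early-G1 control replicate 2 and 11.5 in mid-G1 control replicate 2, where its peak was 6874 and 6415 bp wide and was also the best peak of Hist1h1d, and between 113.5 and 10705.5 in the other post-mitotic libraries.

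No peak was found at 9 members in any of the 18 libraries: Hist1h2bq, Hist1h2ao, Hist1h4m, Hist1h4n, Hist1h2ap and Hist1h2br, which are consecutive in the first chromosome 13 run, and Hist2h2aa2, Hist2h2aa1 and Hist2h3b on chromosome 3. They were 4 H2A, 2 H2B, 2 H4 and 1 H3 gene. The reads were 50 bases long and reads with low mapping quality had been removed, so the share of 50-base words found once in the genome was computed for each gene and its flanks. It had a median of 10.1% at these 9 genes and of 80.9% at the 54 genes detected in every library, of which the lowest was 38.1% (Hist1h3e). Of the 9 genes 8 lay under 25%, and no other member did. Hist2h3b was the exception, at 75.7% for the window, 20.3% for the gene body and 99.9% for the 1 kb past its end. The regions between the paired starts of Hist1h2bq and Hist1h2ao and of Hist1h2ap and Hist1h2br held no unique word and were exact reverse complements of each other. They are shown because a read from one cannot be told from a read of the other, so that the lack of a peak says nothing of PolII there (CCAAT on either strand in capitals, plus strand).
Hist1h2bq/Hist1h2ao, chr13:21902069-21902235: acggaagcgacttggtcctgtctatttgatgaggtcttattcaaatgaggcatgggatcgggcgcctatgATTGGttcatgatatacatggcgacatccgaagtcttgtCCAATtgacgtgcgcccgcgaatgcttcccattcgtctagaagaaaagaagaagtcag
Hist1h2ap/Hist1h2br, chr13:21925445-21925611: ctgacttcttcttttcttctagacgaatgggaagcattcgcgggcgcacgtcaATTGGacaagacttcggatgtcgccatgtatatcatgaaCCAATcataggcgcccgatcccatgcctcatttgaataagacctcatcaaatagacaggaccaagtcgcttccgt

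**Figure D3:**
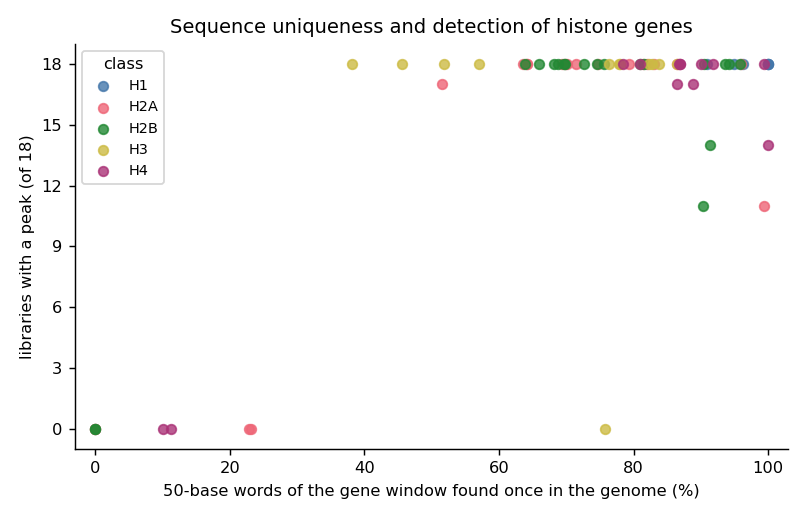
Share of 50-base words of the gene window that occur once in the genome (horizontal axis, percent) and number of the 18 libraries with a peak (vertical axis) for the 70 histone genes, coloured by class. All 8 genes under 25% have no peak in any library, and Hist2h3b is the one gene above 25% without a peak.

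A few of the detected members had little PolII. Hist4h4 had no prometaphase peak and ranked 3554.5 to 19286.5 after mitosis, with a window that was 100% unique. Hist3h2ba had no prometaphase peak either and ranked 4612.5 to 10505, although Hist3h2bb-ps and Hist3h2a, a few kilobases away in the chromosome 11 cluster, ranked 9.5 to 511.5. Hist1h2ba and Hist1h2aa, the testis H2B and H2A pair at the edge of the larger chromosome 13 run, had no prometaphase peak and a weak peak in 11 of 14 post-mitotic libraries, where the fold enrichment was 5.66 to 10.2. The 3 libraries without that peak were early-G1 control replicate 2, late-G1 control replicate 2 and late-G1 auxin replicate 2. Hist1h2al, alone on chromosome 13, had a narrow peak of 255 to 353 bp in 17 of 18 libraries. Its ranks were 417.5 to 680.5 in 3 prometaphase libraries and 405 to 5656.5 after mitosis. Its window was only 51.5% unique.

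The ranges of the 3 main clusters overlapped after mitosis. The median rank per library in early-G1 was 51 to 92 in the 24-gene run, 46 to 66 in the 31-gene run and 21 to 182 in the chromosome 3 block. In late-G1 the ranges were 39.8 to 137, 51 to 189 and 31 to 89.5. In prometaphase they were 89 to 132.5, 61.5 to 89 and 91 to 159.5. By class the prometaphase medians were 52.5 to 62.5 for H1, 44.5 to 96.5 for H3, 82 to 126 for H2B, 85.5 to 147.5 for H2A and 108.5 to 239 for H4 genes, so that H1 and H4 did not overlap.

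The other protein-coding genes inside the clusters were mostly without PolII. Of 10 such neighbours 6 had no post-mitotic peak: Pom121l2, Hfe, Trim38, Slc17a2, Slc17a3 and Slc17a1. Zfp184 was detected in 4, Prss16 in 3 and Slc17a4 in 2 of 14 libraries. The only neighbour detected throughout was the gene model Gm17658, whose mean rank, 36.6, equalled that of Hist1h4d, with the same test values, so the 2 genes were scored on one peak.

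Where a prometaphase peak covered a single member, its summit lay past the gene more often than within it. In prometaphase 22 to 29 members per library had such a peak, the median summit lay 1009 to 1077.5 bp from the annotated start, and 15 to 20 of the summits lay beyond the gene end. In early-G1 12 to 19 members had one and the median was 768 to 778 bp. The median member had 54.1% unique words in its body and 100% in the next 1 kb, and the part of this in the summit positions was not tested. Over all members detected in both stages, 14 of 54 (25.9%) had the summit further downstream in every prometaphase library than in every early-G1 library, where 15.5% of all genes did, and 3 (5.56%) had it further upstream, where 9.89% did. This count includes members that shared a best peak. The summit of a shared peak may lie at a neighbour, and members under one peak are not independent cases. At Hist2h3c2 the summit was 1763, 1822, 1704 and 1792 bp from the start in prometaphase and 800, 816, 886 and 929 bp in early-G1, with a gene length of 1011 bp. At Hist2h4 it was 1266 to 1858 bp and 1204 to 1224 bp. At Hist1h4j it was 679 to 776 bp and 481 to 666 bp. The stages did not overlap at these 3 of the 7 genes whose best peak was unshared in all 18 libraries, and they overlapped at Hist1h2bn, Hist1h4f, Hist2h3c1 and Hist2h2bb.

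The change from prometaphase to early-G1 was tested with limma over the 950 genes detected in all 8 libraries. In each library these genes were re-ranked among themselves by the fold enrichment of their best peak. The −log2 of that rank was tested. Of 54 members 13 rose in rank, where 18.2% of genes tested did, and 7 fell, where 16.2% did (limma, adjusted p under 0.05). The 20 genes rested on 14 peak units. The median member changed by 0.47 and the median gene by 0.00 on that scale. On the log2 fold enrichment scale the balance was the other way, with 29 members lower, where 30.2% of genes tested were, and 2 higher, where 15.7% were, relative to the median gene, 9 of them called with the same sign on both scales, and a median member change of −0.45. Normal scores of the same ranks called 12 members higher and 6 lower, where 17.8 and 19.2% of genes were, 17 of them as in the rank test. The members that rose in rank included the pair Hist3h2bb-ps and Hist3h2a, which ranked 62, 107, 136 and 131.5 in prometaphase and 22.5, 11, 12 and 9.5 in early-G1 (2.93 ± 0.32, SE, limma adjusted p = 0.00118). These are places in the full lists, which are of very unequal length, whereas the change was tested on ranks among the 950 genes. The fold enrichment of the pair was 20.1 to 30.6 in prometaphase and 96.4 to 111 in early-G1, and relative to the median gene it differed by −0.088 on the log2 scale. Hist1h2bl, Hist1h2ai, Hist1h3h, Hist1h2bn, Hist1h2bp, Hist1h2bh, Hist1h3f, Hist1h1d, Hist1h2ad, Hist1h4d and Hist1h2be also rose. The largest rise was that of Hist1h4d, 4.16 ± 0.43. In each early-G1 library its fold enrichment was that of Hist1h2be, but not in prometaphase. The widest peak at Hist1h3f was 286 to 433 bp in prometaphase. In early-G1 it was 1956 to 3183 bp, and Hist1h3f then had the ranks of Hist1h2bh. At Hist1h2ad the widest peak was 1088 to 1163 bp and then 5127 to 5969 bp. The part of peak merging in these rises was not tested. On the log2 fold enrichment scale the estimates of Hist3h2bb-ps, Hist3h2a, Hist1h3h, Hist1h2bh, Hist1h1d, Hist1h4d and Hist1h2be were below 0. Those that fell were Hist2h3c1 (−3.46 ± 0.33), Hist2h3c2 (−2.91 ± 0.28), Hist1h4i (−2.001 ± 0.36), Hist1h1e, Hist1h1t, Hist1h2ab and Hist1h3b. When each of the 8 libraries was left out in turn, Hist1h1d, Hist1h2bp and Hist1h3b were called in 2 of the 8 fits, Hist1h2ab in 1 and Hist1h1e in 5. With a window at the start site only, Hist1h2be changed by −1.79. Hist2h3c1, an H3 gene, went from ranks 26, 42, 49 and 32.5 to 109, 102.5, 493.5 and 725.5.

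**Figure D4:**
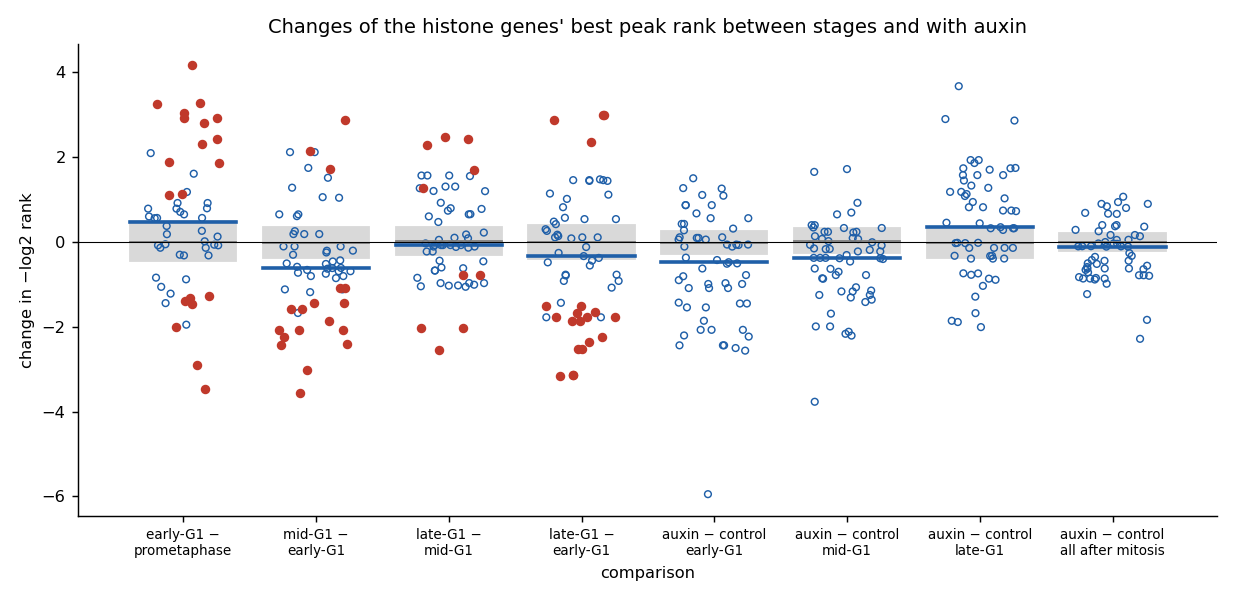
Change in −log2 rank of the best peak (vertical axis, positive is a better rank) of the histone genes in 8 comparisons (horizontal axis). Each point is a gene, filled red where the limma adjusted p was under 0.05, the blue line is the histone median, and the grey box spans the quartiles of all genes tested around their median. Called genes lie on both sides of 0 between prometaphase and early-G1, 15 of 18 are lower in mid-G1 than in early-G1, and no gene is called for auxin.

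After mitosis the −log2 rank of each gene's best peak in its list, centred on the median gene of its library, was tested with limma. The fit covered the 9631 genes detected in all 14 libraries, among them 59 members. From early-G1 to mid-G1, 15 members fell in rank, where 7.16% of genes tested did, and 3 rose, where 5.89% did. From mid-G1 to late-G1 5 fell and 5 rose, where 3.90% and 4.03% did. From early-G1 to late-G1 16 fell, where 7.02% did, and 4 rose, where 6.24% did. The called members rested on 10, 8 and 12 peak units. The median member changed by −0.62, −0.08 and −0.34 in −log2 rank. On the log2 fold enrichment scale, 6, 1 and 3 members were called. From early-G1 to mid-G1 these were 5 higher and 1 lower, where 8.98 and 5.63% of genes were, so the prevailing direction depended on the scale. From mid-G1 to late-G1 the 1 was lower, where 4.43% were and 2.74% were higher, and from early-G1 to late-G1 2 were higher and 1 lower, where 7.42 and 5.92% were. From early-G1 to mid-G1 normal scores called 7 lower and 4 higher, where 6.65 and 6.68% of genes were, and ranking by −log10 p called 12 members, each of them lower, where 4.8% were lower and 3.49% higher. When late-G1 control replicate 3 was left out, 12 members fell and 6 rose from early-G1 to late-G1, where 6.48 and 6.71% of genes did, and the median member changed by −0.07. Without late-G1 auxin replicate 1, 13 fell and 3 rose over that interval, where 4.51 and 3.76% did, with a median of −0.52, and no member was called from mid-G1 to late-G1, where 2.39% rose and 2.32% fell. The members called on the log2 fold enrichment scale were Hist1h2ah, Hist1h2bk, Hist1h4i, Hist1h2ag and Hist1h1e (higher) with Hist1h3g (lower) from early-G1 to mid-G1, Hist1h2ak (lower) from mid-G1 to late-G1, and Hist1h4i, Hist2h3c1 (higher) and Hist1h3g (lower) from early-G1 to late-G1. The median standard error of a member was 0.59 for the longest interval against 0.32 over all genes.

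Among the genes that fell between early-G1 and late-G1, Hist1h2bh and Hist1h3f, an H2B and an H3 gene under one peak, had little spread between libraries. They ranked 59.5, 63, 62 and 56 in early-G1, 94 to 176.5 in mid-G1 and 159.5 to 314 in late-G1. The stages did not overlap between early-G1 and either later stage. Their change was −1.86 ± 0.23 (limma adjusted p = 0.000262). Hist3h2bb-ps and Hist3h2a ranked 17 to 64 in mid-G1, and 84, 511.5, 114 and 36 in late-G1, −3.14 ± 0.54 from early-G1 and −2.47 without late-G1 control replicate 3. Hist1h2bl ranked 19 to 29 in early-G1, 51.5 to 149 in mid-G1 and 58 to 333 in late-G1. The other genes that fell over this interval were Hist1h2ai, Hist1h3h, Hist1h4k, Hist1h2ak, Hist1h3g, Hist1h4d, Hist1h1c, Hist1h4b, Hist1h4a, Hist1h3a and Hist1h1a. Those that were lower in mid-G1 than in early-G1 but not called over the whole interval were Hist1h2aj, Hist1h2bm, Hist1h2bn, Hist1h4h, Hist1h2af, Hist1h3d, Hist1h2be and Hist2h2bb. Of these Hist1h2af was called in 6 of the 14 fits that each left out a library, and with a start-site window Hist1h2be (1.76) and Hist1h4h (0.49) changed the other way. From mid-G1 to late-G1 Hist3h2bb-ps, Hist3h2a, Hist1h2ak, Hist1h2bh and Hist1h3f fell. These 5 calls depended on single late-G1 libraries. None of the 5 passed without late-G1 auxin replicate 1, and Hist1h2bh and Hist1h3f were called in 3 of the 14 fits that each left out a library. Without late-G1 control replicate 3 none passed either (Hist3h2a −1.35, Hist1h2ak −1.62 and Hist1h2bh −0.82, limma adjusted p = 0.0738, 0.0769 and 0.0583), and the 8 members then called all rose, where 4.07% of genes did and 3.42% fell. Over the longer interval the calls at Hist1h1c, Hist1h2ai, Hist1h3h and Hist1h4d were lost in the same way, at adjusted p = 0.136, 0.0521, 0.0521 and 0.0772.

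A smaller set rose. Hist1h1e, a linker histone gene, ranked 29, 37.5, 131 and 183 in early-G1, 10 to 53 in mid-G1 and 6 to 13 in late-G1 (2.99 ± 0.38, limma adjusted p = 0.000262). Hist1h4i ranked 278, 81, 361 and 240 in early-G1 and 11.5 to 60 in late-G1 (2.98 ± 0.56), and its neighbour Hist1h2ag rose by 2.35 ± 0.60. Hist2h3c1 ranked 27, 23, 30 and 75.5 in late-G1, 2.88 ± 0.59 above early-G1. At Hist1h1e, Hist1h4i and Hist2h3c1 every late-G1 library ranked the gene higher than any early-G1 library. From mid-G1 to late-G1 the members that rose were Hist1h1e, Hist2h3c1, Hist1h4j, Hist1h2bn and Hist2h2bb. Without late-G1 control replicate 3, Hist2h3c1, Hist1h2bn and Hist2h2bb kept their call, and Hist1h1e (1.012) and Hist1h4j (1.41) had adjusted p = 0.123 and 0.0973. Without late-G1 auxin replicate 1 none of the 5 was called, and Hist1h1e was called in 3 of the 14 fits that each left out a library.

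**Figure D5:**
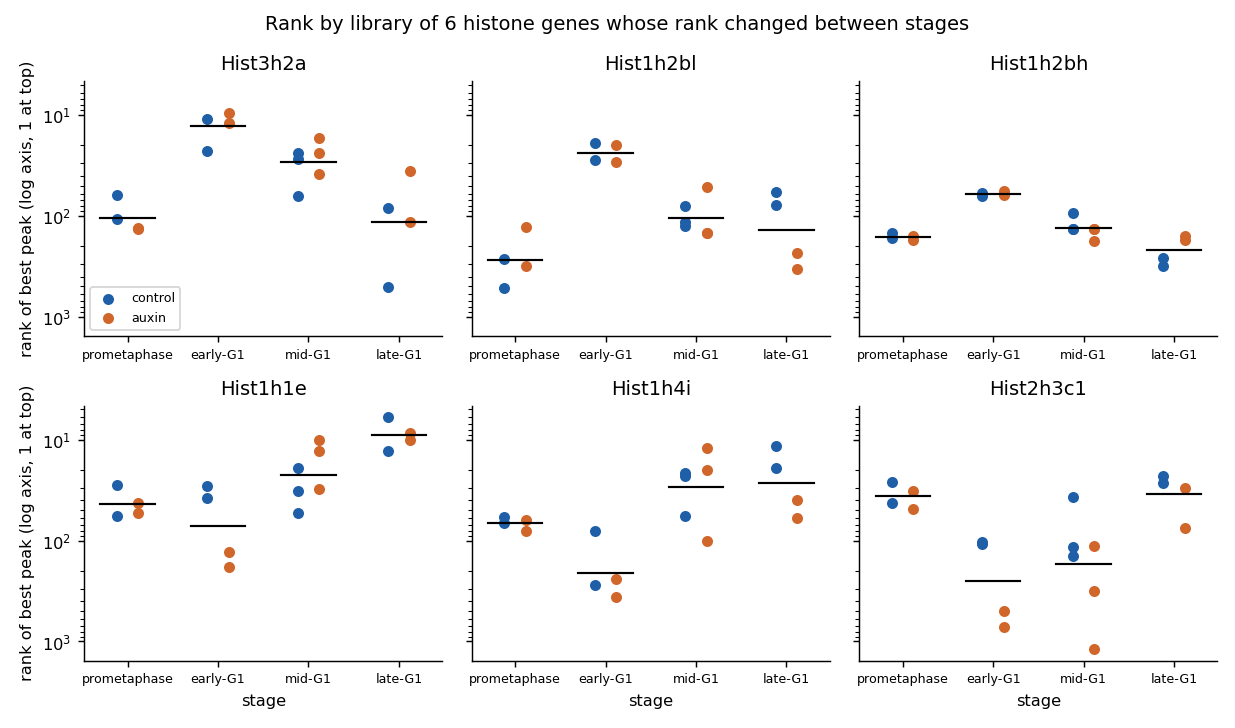
Rank of the best PolII peak (vertical axis, log scale, best at the top) by stage (horizontal axis) at 6 histone genes. Points are libraries, blue for control and orange for auxin, and black lines are geometric means over each stage. Among the stages after mitosis, Hist3h2a, Hist1h2bl and Hist1h2bh are highest in early-G1. Hist1h1e, Hist1h4i and Hist2h3c1 are highest in late-G1 (ranks of 6 to 13, 11.5 to 60 and 23 to 75.5). Prometaphase ranks are places in far shorter lists and are not comparable with the later ones.

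Auxin, with the loss of CTCF, was not followed by a called change at any of the 59 histone genes tested after mitosis. The other members and prometaphase were not tested for auxin. No member was called over the 3 post-mitotic stages together, where 0.851% of genes tested were called (limma), and 8 members had an unadjusted p under 0.05. In early-G1, mid-G1 and late-G1 alone no member was called, where 0.0934, 0.156 and 0.28% of genes were, and 7, 8 and 13 members had an unadjusted p under 0.05. No member was called for an auxin effect that differed between stages, where 0.0311% of genes were, with 18 at an unadjusted p under 0.05. The share of all genes under that unadjusted level was not taken. The unadjusted counts, here and for width below, thus have no background beside them and also include members that shared a peak. The median member differed by −0.11 between auxin and control, 39 of 59 estimates being below 0. On the −log2 scale the median standard error of a member was 0.45, against 0.24 over all genes. The overall median turned on the late-G1 libraries, at −0.46 without control replicate 3, −0.42 without auxin replicate 1 and 0.07 without control replicate 2. The early-G1 median was −0.48, and −0.51 to −0.24 when a library was left out. The mid-G1 median was −0.38, and 0.09 without mid-G1 control replicate 2. The late-G1 median was 0.34, and −0.26 without control replicate 3, 0.23 without auxin replicate 1, 0.73 without control replicate 2 and 0.90 without auxin replicate 2. Without late-G1 auxin replicate 1, whose label the sources disputed, no member was called for auxin overall or in any stage. The nearest to the threshold was Hist2h3c1, which ranked 109 and 102.5 in the early-G1 controls and 493.5 and 725.5 after auxin. In mid-G1 it ranked 116, 37 and 143 in the controls and 113.5, 1189.5 and 315.5 after auxin. In late-G1 it ranked 27 and 23 and, after auxin, 30 and 75.5. The groups overlapped in mid-G1, and in early-G1 and late-G1 each held only 2 libraries (−1.84 ± 0.45 over the stages, limma adjusted p = 0.0904). The lowest estimate was that of Hist1h3e, −2.29 ± 1.31, and the next was Hist1h4h, −1.23 ± 0.51. The highest were Hist1h4f, 1.06 ± 0.51, Hist1h4d, 0.94 ± 0.52, and Hist3h2a, 0.89 ± 0.41.

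Peak width did not separate the groups at the histone genes either. On log2 width of the widest peak no member was called for auxin, where 0.156% of genes were (limma), with 1 member at an unadjusted p under 0.05. None was called between early-G1 and late-G1, where 7.48% were, with 2 at an unadjusted p under 0.05. The median member differed by −0.20 in late-G1 and by −0.06 after auxin, with median standard errors of 0.31 and 0.24, and by 0.13 and 0.06 when the bases covered in the window replaced the widest peak.

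Genes that act in histone gene expression were occupied at more moderate ranks. All 23 genes of a list of histone expression factors were detected in all 14 post-mitotic libraries, with a median of their mean ranks of 3037, and 2 in all 4 prometaphase libraries. The best were Srrt (mean rank 302), Slbp, the stem-loop binding protein (374), and Cdk2, which with cyclin E acts on Npat (859). From early-G1 to late-G1 5 of 23 fell, where 7.02% of genes tested did, and none rose, where 6.24% did. Those that fell were Npat (−1.12 ± 0.28), Cpsf2, a subunit of the cleavage machinery (−2.43 ± 0.34), and Ncbp1 (−0.998 ± 0.29). Ccne2, a cyclin E (−1.47 ± 0.32), and Cdc25a (−1.28 ± 0.35) fell as well. Npat had mean ranks of 1211 in early-G1, 3093 in mid-G1 and 2659 in late-G1, and no prometaphase peak. From early-G1 to mid-G1 Npat, Ccne2 and Cdc25a fell, where 7.16% of genes tested did. From mid-G1 to late-G1 Cpsf2 fell and Srrt rose, where 3.9 and 4.03% did. Cdc25a also had a narrower peak in late-G1 (−1.38 ± 0.25), where 7.48% of genes tested were called for width. Pou2f1, which binds the octamer, fell from prometaphase to early-G1 (−0.74 ± 0.23), where 16.2% did. Only 2 of the 23 were tested over that interval. The list was read on the rank and width tests only. None of the 23 was called for auxin, where 0.851% of genes tested were.

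Of 11 genes of replication-independent histone variants, 10 were in the annotation under the symbols used and 7 were detected in all 14 post-mitotic libraries. H3f3b, which encodes H3.3, had a mean rank of 19.8 and H2afx one of 57.4, within the range of the replication-dependent genes, followed by H2afz (157). H3f3b and H3f3a (−1.05 ± 0.29) fell from early-G1 to late-G1, where 7.02% of genes tested did. Cenpa, the centromeric H3 gene, rose (1.68 ± 0.35), where 6.24% did. H3f3b also fell from mid-G1 to late-G1 (−1.37 ± 0.36), where 3.9% did. From prometaphase to early-G1 H2afx (−0.59 ± 0.18) and H2afz (−0.94 ± 0.18) fell and H3f3a rose (0.66 ± 0.19), where 16.2 and 18.2% did. This list too was read on the rank and width tests only. None of these genes was called for auxin.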

How the data were processed

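PolII ChIP-seq was analysed in 18 libraries. Per the labels and the study's methods, the authors aligned 50-base single-end reads to mm9 with Bowtie2 2.2.9, removed reads of low mapping quality and duplicates (SAMtools 0.1.19), removed blacklisted regions (bedtools 2.27.1), and called peaks in each library against the input of its stage with MACS2 2.1.0. The deposited peak lists hold, per peak, a fold enrichment (a ratio of pileup to background), −log10 p, −log10 q and a summit. The deposited score, which the authors' peak caller writes as a rescaled −log10 q, was not used. The 4 inputs were not analysed here.

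Each gene took the best peak overlapping the gene and 500 bp on either side. Its −log2 rank by fold enrichment, centred on the median gene of the library, was tested with limma 3.58.1 in R 4.3.3 (Benjamini-Hochberg, adjusted p under 0.05) on all genes detected in every library of the fit, with a mean per stage and condition. Log2 width of the widest peak was tested likewise. For early-G1 against prometaphase the rank was instead that among the genes of the fit, without centring. The fits were checked on simulated data. Summit pileups were solved from fold enrichment and −log10 p, and were whole numbers within 0.05 at 100% of peaks. The lists do not hold the read depth, and the study's read totals were not used here. The background pileup was 0.73 to 2.14 per library. A deposited −log10 q of at least 5 was the stricter threshold. Alternatives are listed in the closing section.

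Members and gene lists were chosen with earlier results of these data known. Genes named in the text were those called in a test, the 8 best mean ranks, the 3 largest changes each way for auxin and for late-G1 against early-G1, the 12 best prometaphase members, members without any peak, and members of clusters of up to 3 genes. Related genes were named where called or among the 3 best of their list. Hist1h2be, Hist1h3i and Hist1h1t are reported with the peaks of their neighbours, and the gene pairs named for shared peaks, summit position or outlying ranks were chosen after their values were seen.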

Additional observations from a re-analysis of the deposited data

How the results depend on the processing

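The counts of calls in this section are of members only, and the total over all genes moved with the setting as well. For auxin over the post-mitotic stages, 82 of 9631 genes were called in the main fit (limma). There were 90 when ranked by −log10 p and 62 with a replicate block. The counts below therefore do not by themselves show an excess or a lack of calls among members. For late-G1 against early-G1 rank 20 histone genes were called. There were 13 when ranked by −log10 p, 10 with normal scores, 3 on log2 fold enrichment and 7 when a summit had to lie in the window (21 genes testable). For mid-G1 against early-G1 rank the 18 calls became 11 with normal scores, 6 on log2 fold enrichment and 6 with a summit in the window. For late-G1 against mid-G1 rank the 10 calls became 0 by −log10 p, 2 with normal scores and 1 on log2 fold enrichment. For early-G1 against prometaphase rank 20 became 31 on log2 fold enrichment and 10 with a summit in the window. Detection in all 18 libraries fell from 54 to 17 genes with a summit in the window and to 31 where peaks had to cover at least 50% of the gene.

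Same-numbered control and auxin libraries shared only a number (their deviations from the group means correlated by 0.02 to 0.28). With a replicate block the auxin effect over the post-mitotic stages called 2 histone genes (Hist1h1t and Hist1h4c), that in mid-G1 called 1 (Hist1h3i) and late-G1 against early-G1 peak width called 1 (Hist1h4b). The other totals stayed within 1.5 times, but rises went from 3 to 8 for mid-G1 against early-G1 rank and from 4 to 7 for late-G1 against early-G1 rank, and falls from 5 to 8 for late-G1 against mid-G1 rank. Ranking by −log10 p called 1 gene for auxin over the post-mitotic stages (Hist2h3c1).

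Leaving out 1 library at a time gave 0 to 3 calls for auxin over the post-mitotic stages, 0 to 3 in early-G1, 0 in mid-G1, 0 to 8 in late-G1 and 0 to 4 for an effect differing between stages. The 8 came without late-G1 control replicate 2, which left replicate 3 alone and assumes that it varies like the other groups. The 3 in early-G1 were Hist2h2ab, Hist2h2ac and Hist2h2be, called without either late-G1 control. The counts were 13 to 22 for mid-G1 against early-G1 rank, 14 to 21 for late-G1 against early-G1 rank (18 without late-G1 control replicate 3) and 16 to 23 for early-G1 against prometaphase rank. They were 0 to 14 for late-G1 against mid-G1 rank (0 without late-G1 auxin replicate 1, 5 without late-G1 auxin replicate 2, and 8, all of them rises, without late-G1 control replicate 3), 0 for auxin on width and 0 to 2 for late-G1 against early-G1 peak width (2 without early-G1 control replicate 1).

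Estimates changed sign at 9 genes. With a start-site window Hist1h4h (0.49) and Hist1h2be (1.76) did so for mid-G1 against early-G1 rank, and Hist1h2be for early-G1 against prometaphase rank (−1.79). On log2 fold enrichment Hist1h2be (0.12) did so for mid-G1 against early-G1 rank, Hist1h1e (−0.049) for late-G1 against mid-G1 rank, and Hist3h2bb-ps (−0.088), Hist3h2a (−0.088), Hist1h3h (−0.22), Hist1h2bh (−0.10), Hist1h1d (−0.23), Hist1h4d (−0.089) and Hist1h2be (−0.49) for early-G1 against prometaphase rank. By −log10 p Hist1h1e (−0.17) did so for mid-G1 against early-G1 rank. The cause of these differences was not tested. The lists do not hold the read depth, and the study's read totals were not used here. Copies without unique sequence were not measurable.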
